A study of Mus musculus with 45 samples.

Results

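The 9 genes of bone matrix and mineralization described here were followed through primary tumors, scaffolds, lungs and spleens of BALB/c mice: Ibsp, Spp1, Dmp1, Bglap, Alpl, Phex, Mgp, Sparc and Runx2. These members, of 55367 gene symbols counted, were chosen by a measured value, the counts of Ibsp in 4T1 and its absence in 67NR tumors, so the contrast of those tumors is given below as a description without a test. All 9 symbols were found in the count table, each on a single line.

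The mice were female, 7 to 8 weeks old when porous polycaprolactone scaffolds, the engineered niche of the study, were placed under the skin. Mice with tumors were later inoculated in the fourth right mammary fat pad with 2000000 cells of 67NR, 4T07 or 4T1, 3 lines from a single spontaneous mammary tumor of a BALB/cfC3H mouse. The 67NR line does not leave the primary site, 4T07 is invasive without forming metastases, and 4T1 metastasizes, mainly to the lung; healthy controls carried scaffolds and no tumor cells. Tissues were taken on day 14, and 45 RNA libraries were analysed, 3 in each of 15 groups (control, 67NR, 4T07 and 4T1 scaffolds, lungs and spleens, and the tumors of the 3 lines). Each line is 1 cell line, so a difference between tumors concerns these lines together with the host cells in their tumors. The labels do not tie a library to an animal, and p-values measure only the spread between these libraries.

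A library held between 3491888 and 8175380 counts (median 5149589), and levels are given as counts or as CPM, the share of the library's total count multiplied by 1000000. A group whose libraries each held 3 counts or fewer is described as at the floor. Libraries were made from the 3' ends of transcripts, so CPM is not scaled by transcript length and levels of different genes are not compared with each other. In whole tissue, fewer cells of a type and less RNA per cell cannot be told apart.

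Bone forms when osteoblasts lay down a collagen scaffold and acidic glycoproteins that bind calcium, and then raise the local ratio of phosphate to its inhibitor pyrophosphate. Ibsp (bone sialoprotein), Spp1 (osteopontin) and Dmp1 (dentin matrix protein) are small secreted glycoproteins that bind integrins, and their genes lie close together on mouse chromosome 5. Outside bone, osteopontin is made by macrophages and many carcinomas, and bone sialoprotein is known in tumors that spread to the skeleton.

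Of 6 markers of bone-forming cells and teeth that are not members, 5 had at most 4 counts in any library. Sp7 (osterix), a transcription factor that osteoblasts need, had at most 2 counts in any of the 45 libraries and none in 38 of them. Sost, made by osteocytes, also reached 2 counts at most, and Phospho1, an enzyme of matrix vesicles, reached 1. Dspp, which is made by the cells of teeth, had a single count in 1 library, and Mepe had at most 4. Ifitm5, a membrane protein of osteoblasts, had over 3 counts in 35 libraries and at most 19. Ibsp and Bglap, themselves markers of osteoblasts, are described below. The members are named by their symbols, and no bone-forming cell type is assigned to these tissues.

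The promoters of 5 members are shown: those of Ibsp, Spp1 and Dmp1, the neighbouring glycoprotein genes, of Bglap, a classic target of Runx2 in osteoblasts, and of Runx2, whose site was searched for. They are RefSeq windows of mouse assembly GRCm38.p6 that run from 250 bases before to 50 bases after the annotated start, written 5′ to 3′ on the gene's strand. Of the 9 members, 8 had such a window, and the build of the count table is not given in the sources used here. Capitals mark the letters ACCACA, a form of the site bound by Runx factors, which was searched on both strands, so that a site of the opposite strand reads TGTGGT. They also mark TATAAA, a form of the TATA box, searched on the gene's strand, and no matches of the 2 motifs overlap in the windows shown.
Ibsp (chr5:104299037-104299336, + strand): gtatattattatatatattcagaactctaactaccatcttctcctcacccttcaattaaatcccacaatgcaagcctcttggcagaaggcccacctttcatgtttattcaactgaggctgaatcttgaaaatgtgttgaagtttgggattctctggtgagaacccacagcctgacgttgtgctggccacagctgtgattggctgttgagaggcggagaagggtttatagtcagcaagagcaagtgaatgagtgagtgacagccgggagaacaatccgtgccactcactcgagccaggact
Spp1 (chr5:104434861-104435160, + strand): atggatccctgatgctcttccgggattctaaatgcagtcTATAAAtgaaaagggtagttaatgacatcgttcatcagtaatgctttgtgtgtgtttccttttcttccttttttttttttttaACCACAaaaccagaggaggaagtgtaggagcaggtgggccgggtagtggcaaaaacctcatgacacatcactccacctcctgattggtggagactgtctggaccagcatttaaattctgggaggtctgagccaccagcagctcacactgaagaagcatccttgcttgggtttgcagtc
Dmp1 (chr5:104202367-104202666, + strand): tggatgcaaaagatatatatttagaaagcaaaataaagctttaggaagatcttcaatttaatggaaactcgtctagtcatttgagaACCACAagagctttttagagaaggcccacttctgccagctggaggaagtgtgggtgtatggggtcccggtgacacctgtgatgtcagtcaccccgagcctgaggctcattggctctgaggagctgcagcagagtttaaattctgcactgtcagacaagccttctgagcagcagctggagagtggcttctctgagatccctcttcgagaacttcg
Bglap (chr3:88384417-88384716, - strand): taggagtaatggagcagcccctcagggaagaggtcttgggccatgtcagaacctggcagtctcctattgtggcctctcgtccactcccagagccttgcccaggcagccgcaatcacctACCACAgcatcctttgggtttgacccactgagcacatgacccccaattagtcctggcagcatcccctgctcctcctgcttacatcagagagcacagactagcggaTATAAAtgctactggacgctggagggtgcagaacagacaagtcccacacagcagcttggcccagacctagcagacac
Runx2 (chr17:44814578-44814877, - strand): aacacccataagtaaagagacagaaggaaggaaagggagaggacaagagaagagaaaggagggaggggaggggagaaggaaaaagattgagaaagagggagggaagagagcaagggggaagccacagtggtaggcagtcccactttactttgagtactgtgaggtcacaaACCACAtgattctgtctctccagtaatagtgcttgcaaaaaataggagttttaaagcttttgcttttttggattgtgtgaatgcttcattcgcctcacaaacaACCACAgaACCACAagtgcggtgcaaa

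ACCACA was found in 16.8% and TATAAA in 8.32% of 32851 mouse promoter windows of this length. The Spp1 window held TATAAA starting 211 bases and ACCACA 128 bases before the start, and the Bglap window held ACCACA at 132 and TATAAA at 27 bases before it. In the Dmp1 window ACCACA began 164 bases before the start, and in that of Runx2 it began 80 bases before and 24 and 32 bases after it. Of the members not shown, Sparc had ACCACA at 36 bases after the start, and Phex and Alpl had no match. Neither set of letters was found in the Ibsp window, which says nothing of other forms of these sites. The Spp1 and Dmp1 promoters each had a second annotated window, without a match.

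The tumors show how the members differ between these lines. Each level of metastatic potential is represented by a single line, so its effect cannot be told apart from other differences between the lines. In the contrast that chose the members, the glycoproteins Ibsp, Dmp1 and Spp1, together with Mgp and Runx2, were higher in 4T1 than in 67NR tumors. Phex was lower, Sparc differed little, and Alpl and Bglap had few counts in either. The invasive but nonmetastatic 4T07 tumors were not intermediate for all of them: they had the most Phex and Bglap, shared high Spp1 and Mgp with 4T1, and lay between the other lines for Ibsp, Dmp1 and Runx2.

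Ibsp had 472, 260 and 355 counts in the 3 4T1 tumors, or 86.3, 53.3 and 76.6 CPM, with a mean of 72.1 ± 17.0 CPM (SD, n = 3). The 3 67NR tumors had no count of it, and the 4T07 tumors had 3, 19 and 6 counts. No library of one line overlapped with another. Set against 67NR tumors at the floor of 3 counts per library, the mean of Ibsp was at least 86.8-fold higher in 4T1 and at least 2.30-fold higher in 4T07 tumors. The second bound does not hold for each tumor, as 4T07 replicate 1, with 3 counts, was itself at the floor. Pooled over libraries, the share of counts of Ibsp was 36.4 times as large in 4T1 as in 4T07 tumors (exact 95% interval 25.0 to 55.0, covering counting error only). Of the 28 counts in 4T07 tumors 19 were in replicate 2, and without that library, a value added after the data were seen, the ratio was 68.7 (36.1 to 151). The 4T1 and 67NR values were used to choose the members, and no tumor value of Ibsp is given with a test.

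Spp1 had 524, 541 and 560 CPM in 67NR tumors, 1996, 3050 and 2576 CPM in 4T07 tumors, and 2040, 2192 and 2490 CPM in 4T1 tumors. Every 4T07 and 4T1 tumor was above every 67NR tumor, while the 2 groups of higher tumors overlapped. In the tests below this gene separated 67NR from 4T07 but not 4T07 from 4T1 tumors.

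Dmp1, known from osteocytes and dentin, had 1, 0 and 3 counts in 67NR, 8, 18 and 2 counts in 4T07, and 25, 31 and 33 counts in 4T1 tumors. All 3 4T1 tumors, at 4.57, 6.35 and 7.12 CPM, were above the highest 4T07 tumor at 3.27 CPM. The 4T07 and 67NR tumors overlapped.

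Bglap encodes osteocalcin, a late product of osteoblasts, and was seen almost only in 4T07 tumors. It had 15, 14 and 11 counts there, against 1, 0 and 0 counts in 67NR and 0, 0 and 1 in 4T1 tumors. Bglap2 and Bglap3 are near-identical copies beside it, and reads may be split among the 3 genes, so the assignment to Bglap itself is uncertain. Bglap2, with 20, 10 and 9 counts in 4T07 tumors and none in the other tumors, followed the same order. Bglap3 did not, with 12, 6 and 6 counts in 67NR, 0, 2 and 0 in 4T07 and 3, 5 and 1 in 4T1 tumors.

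Phex, a membrane endopeptidase whose loss causes low blood phosphate, had 4.57, 3.92 and 4.80 CPM in 67NR tumors and 10.8, 20.0 and 13.3 CPM in 4T07 tumors. In 4T1 tumors it had 2.01, 1.64 and 1.08 CPM, and no library of one line overlapped with another. RefSeq places other genes over Phex (Gm52451, Gm25795 and Gm15172), and over Runx2 (Runx2os3 and Supt3), and the strand used in counting was not given in the sources used here.

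Mgp, an inhibitor of calcification in cartilage and vessel walls, had 29.6, 33.3 and 36.1 CPM in 67NR tumors. It reached 200, 334 and 244 CPM in 4T07 and 233, 195 and 183 CPM in 4T1 tumors, again with all 6 tumors of the invasive lines above all 67NR tumors. Alpl, the phosphatase that removes pyrophosphate, had only 0 to 8 counts in any tumor, and its groups overlapped.

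Sparc (osteonectin), a collagen-binding glycoprotein of many stromal cells, was abundant in all tumors, with 1745, 1674 and 1360 CPM in 67NR, 1326, 1269 and 1475 CPM in 4T07 and 1902, 2001 and 2353 CPM in 4T1 tumors. The 4T1 tumors were above all others, and the 67NR and 4T07 tumors overlapped. Runx2, the transcription factor that starts osteoblast differentiation, had 9.94, 8.11 and 11.0 CPM in 67NR, 16.3, 15.2 and 20.9 CPM in 4T07 and 27.8, 30.7 and 38.9 CPM in 4T1 tumors, with no overlap between any 2 lines.

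**Figure D1:**
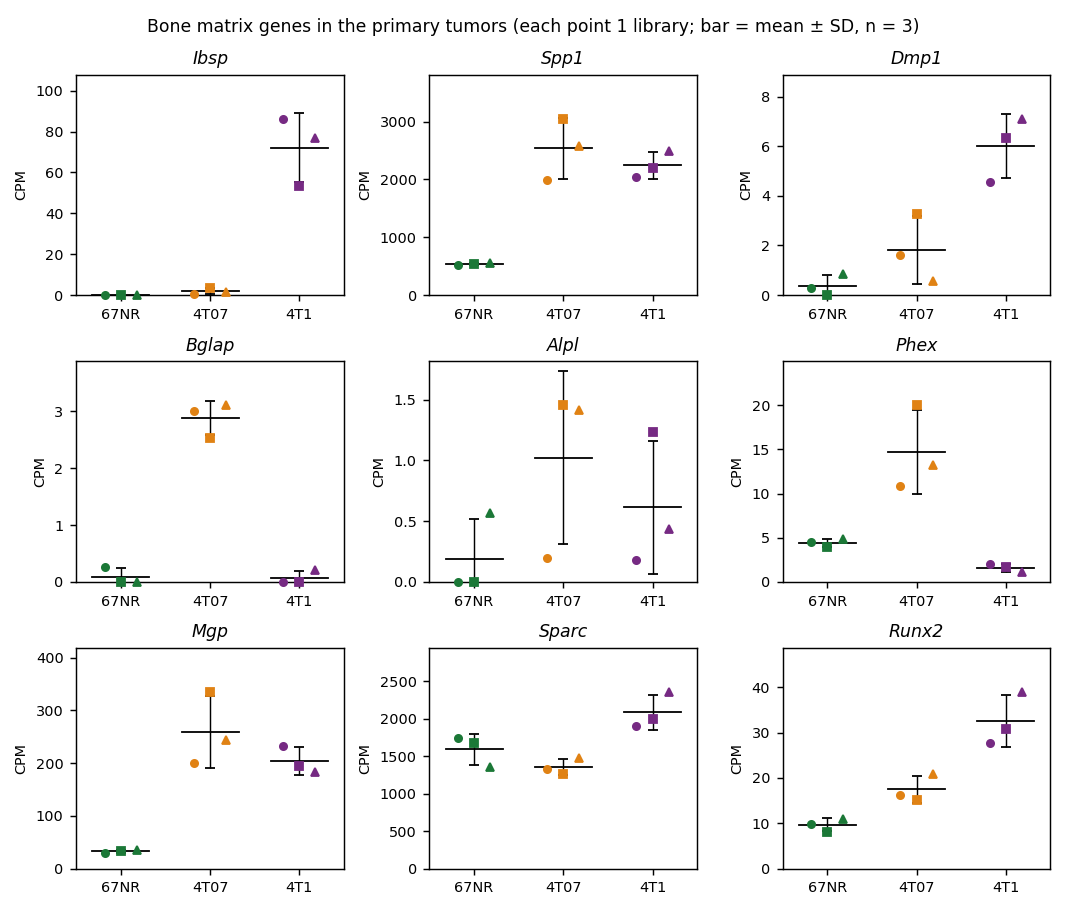
CPM of each member in the primary tumors of the 3 lines (horizontal axis), with a point for each library and the mean ± SD (n = 3) in black; each panel has its own vertical axis from 0. Ibsp and Dmp1 are highest in 4T1, Bglap and Phex in 4T07, and Spp1 and Mgp are lower in 67NR than in both other lines.

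For the comparisons that the rule did not use, the 8 members other than Ibsp were tested with edgeR's quasi-likelihood test, at a Benjamini-Hochberg adjusted p under 0.05 and a fold over 2. Between 4T07 and 67NR tumors, 4 of these 8 passed, all higher in 4T07, where 28.9% of the 20508 genes tested passed in either direction and 17.1% were higher. In the contrast the rule used, 20.7% of all genes passed, a share from which nothing is read for the members. Between 4T1 and 4T07 tumors 3 of the 8 passed, 1 higher and 2 lower in 4T1, where 8.61% of all genes passed. Bglap is among those that passed in both comparisons, but it entered the fit only through its counts in 4T07 tumors, where it is high, so neither count of members is read as support and no p is given for it. Both comparisons use the same 4T07 tumors, and Phex was already known to differ in these libraries, so its calls are not independent evidence.

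Mgp rose most firmly from 67NR to 4T07 tumors, by 2.73 ± 0.21 on the log2 scale (SE, edgeR adjusted p = 1.58e-07), and Spp1 by 1.98 ± 0.20 (adjusted p = 1.77e-06). Phex rose by 1.48 ± 0.32 (adjusted p = 0.00169). The share of counts of Bglap was 30.9 times as large in 4T07 tumors, with a wide interval of 5.23 to 1250 because the 67NR tumors held 1 count, and this ratio is a description. The median log2 difference over all genes in this comparison was 0.16. Runx2 (0.59 ± 0.24, adjusted p = 0.0568) and Dmp1 (adjusted p = 0.0524) missed the threshold. Dmp1 passed it with no filter on low counts (adjusted p = 0.0174), without 67NR replicate 3 (0.0287) or without 4T07 replicate 3 (0.022). Alpl had an adjusted p of 0.174, and Sparc was lower in 4T07 by less than 2-fold (-0.48 ± 0.18, adjusted p = 0.0415).

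From 4T07 to 4T1 tumors Phex fell by 3.14 ± 0.35 on the log2 scale (SE, edgeR adjusted p = 2.5e-05). Phex was thus called higher in 4T07 than in 67NR and lower in 4T1 than in 4T07 tumors. The share of counts of Bglap, again as a description, was 42.7 times as large in 4T07 as in 4T1 tumors (interval 7.23 to 1728). Dmp1 rose by 1.68 ± 0.51 (adjusted p = 0.0364). This last call was lost without either of 2 4T07 tumors or without any 1 of the 4T1 tumors, with adjusted p from 0.0652 to 0.117 (4T07 replicates 1 and 3 and 4T1 replicates 1, 2 and 3).

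Runx2 (0.95 ± 0.22, adjusted p = 0.00842) and Sparc (0.67 ± 0.18, adjusted p = 0.0192) were higher in 4T1 than in 4T07 tumors by slightly less than the required fold of 2. Runx2 passed it without 4T07 replicate 3 or 4T1 replicate 1, at 1.10 and 1.05 on the log2 scale. Spp1 (-0.13 ± 0.19, adjusted p = 0.697) and Mgp (-0.30 ± 0.19, adjusted p = 0.326) gave small differences, and Alpl had an adjusted p of 0.672.

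**Figure D2:**
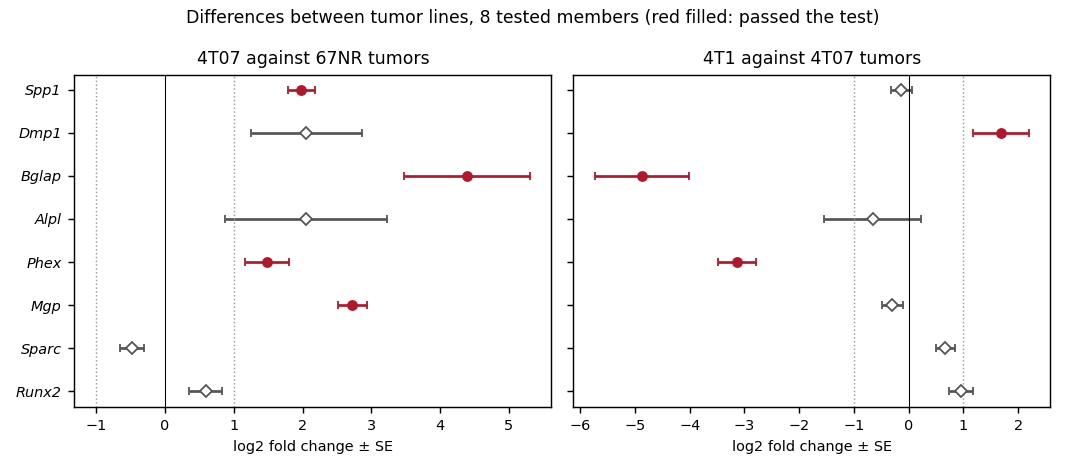
Log2 fold changes ± SE (horizontal axis) from edgeR for the 8 tested members in 4T07 against 67NR tumors (left) and 4T1 against 4T07 tumors (right); filled red points passed the test, open grey points did not, and dotted lines mark a fold of 2. Mgp, Spp1, Phex and Bglap lie to the right on the left side, and Phex and Bglap to the far left on the right side; Bglap entered the fit only through 4T07 tumors.

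Markers of several other cell types differed between the tumors of these lines. The summed level of 8 fibroblast markers was 444.5 to 505 CPM in 67NR tumors, 1792 to 2381 in 4T07 and 1972 to 2692 in 4T1 tumors, and that of 8 epithelial carcinoma markers was 24.6 to 41.1, 185 to 253 and 1229 to 1356 CPM. Summed over 10 genes, osteoclast and giant cell markers came to 92.0 to 112 CPM in 67NR, 182 to 338 in 4T07 and 350 to 449 in 4T1 tumors. All 8 fibroblast and all 8 epithelial markers were detected in the tumors of each line, while Oscar and Calcr of the osteoclast list were at 0 in 67NR tumors and Oscar in 4T07 tumors. Neutrophil markers, 8 genes, ranged from 22.3 to 377 CPM in 67NR, 1005 to 4942 in 4T07 and 517 to 807 CPM in 4T1 tumors, and macrophage markers, 10 genes, from 2116 to 2458, 2511 to 3130 and 1669 to 2039 CPM. Smooth muscle markers, 6 genes, came to 23.8 to 37.8 CPM in 67NR, 40.3 to 94.3 in 4T07 and 136.5 to 224.5 CPM in 4T1 tumors. Endothelial markers, 6 genes, overlapped between the lines, at 169 to 216, 168 to 309 and 177 to 217 CPM in the same order. Chondrocyte markers stayed at or below 13.8 CPM summed over 9 genes, with Acan and Matn1 at 0 in all tumors. The part of these cells in the levels of Spp1, Mgp, Sparc, Dmp1 and the other members, and of the further bone matrix and mineralization genes below, was not tested.

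The other genes of the pathway were read from 4 lists with 75 genes in the table, of which 67 were tested in tumors. From 67NR to 4T07 tumors 30 of them rose and 5 fell, beside the 28.9% of all genes that passed and the 17.1% that were higher. Their median log2 difference was 0.92 (0.74 with genes at the floor set to their bound) against 0.16 for all genes. Among 21 other bone matrix proteins 13 rose and 1 fell, including the adhesion proteins Thbs1 (3.17 ± 0.35) and Tnc (3.17 ± 0.27) and the matrix protein Thbs2 (2.79 ± 0.21), with edgeR adjusted p of 4.76e-06, 4.61e-07 and 1.14e-07.

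Of 14 genes of phosphate and pyrophosphate handling 6 rose and 1 fell from 67NR to 4T07 tumors, beside the 28.9% of all genes that passed and the 17.1% that were higher. Galnt3, whose enzyme protects the phosphate hormone FGF23, went from 0.278 ± 0.282 to 15.8 ± 2.87 CPM (SD, n = 3, edgeR adjusted p = 5.33e-07). Nt5e, which makes adenosine from AMP, rose by 4.44 ± 0.32 and the phosphate transporter Slc20a1 by 2.33 ± 0.28 on the log2 scale (adjusted p of 8.67e-08 and 1.13e-05).

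Of 23 transcription factors and signals of osteoblasts, 9 rose and 3 fell from 67NR to 4T07 tumors, against the same 28.9% and 17.1% of all genes. Tnfrsf11b (osteoprotegerin, the decoy receptor that restrains osteoclasts) went from 0.366 ± 0.317 to 19.8 ± 10.3 CPM, and Bmp7 from 0.277 ± 0.00720 to 2.40 ± 0.409 CPM (SD, n = 3, edgeR adjusted p of 5.62e-06 and 0.000648). Msx1 rose by 1.90 ± 0.46, Twist1, a factor that holds back Runx2, fell by 1.86 ± 0.41, and Cbfb, the partner of Runx proteins, fell by 1.30 ± 0.26 (adjusted p of 0.00409, 0.00205 and 0.000865). Of the 9 receptors of osteopontin and bone sialoprotein 2 rose, where 17.1% of all genes were higher and 28.9% passed, among them Itgb3 (1.94 ± 0.25, adjusted p = 2.05e-05).

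From 4T07 to 4T1 tumors 7 of the 67 pathway genes rose and 7 fell, beside 8.61% of all genes, with a median of 0.26 against -0.05 for all genes. Tnc rose again, by 1.96 ± 0.23, and Postn by 1.13 ± 0.15, while Ogn fell by 1.27 ± 0.28 (edgeR adjusted p of 3.37e-05, 0.000128 and 0.00613). Among factors and signals Bmp7 rose by 3.15 ± 0.28, Twist1 by 1.83 ± 0.40 and Id3 by 1.59 ± 0.22, and Tnfrsf11b fell by 3.68 ± 0.46, Sox9 by 1.45 ± 0.22 and Atf4 by 1.24 ± 0.19, with adjusted p from 2.79e-06 to 0.00601. Tnfrsf11b, like Phex and Bglap, had its highest mean in 4T07 tumors, and Bmp7, like Ibsp and Dmp1, in 4T1 tumors. None of the 9 receptors passed with edgeR or with DESeq2, and 4 of them had an unadjusted p under 0.05.

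**Figure D3:**
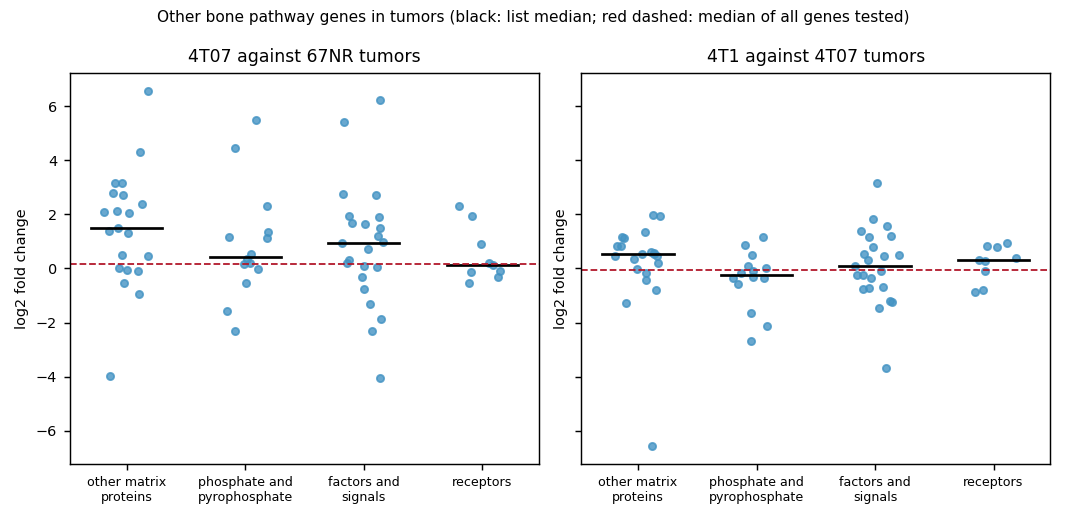
Log2 fold changes (vertical axis) of the other bone pathway genes, by list, in 4T07 against 67NR tumors (left) and 4T1 against 4T07 tumors (right); each point is 1 gene (values for genes without counts in a line are fitted and are no bound), the black bar is the list's median and the red dashed line the median of all genes tested. On the left the median of the other matrix proteins is at 1.48 and that of all genes at 0.16.

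Outside tumors Ibsp and Bglap were not detected above the floor. Ibsp had 0 to 3 counts in the 36 scaffold, lung and spleen libraries, with none in 67NR lungs or in 67NR, 4T07 and 4T1 spleens, and Bglap had 0 or 1. Neither passed the filter on low counts in a scaffold, lung or spleen fit. In lungs of 4T1 mice, the site to which this line spreads, Ibsp had 0, 1 and 2 counts against 0, 0 and 1 in control lungs, so no rise was detectable at this depth.

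The healthy controls show where the members are expressed without a tumor. Spp1 and Sparc were highest in scaffolds, which are filled by host cells after implantation, and Mgp, Phex and Alpl were highest in lungs. The filter was passed there by 7 members, and from scaffold to lung 5 of them were called (adjusted p under 0.05 and fold over 2), against 30.0% of 21602 genes.

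Spp1 had 2269, 2296 and 1797 CPM in control scaffolds, 150, 135 and 112 CPM in control lungs and 26.6, 8.77 and 12.3 CPM in control spleens. It was lower in lung than in scaffold by 4.22 ± 0.33 and lower in spleen than in scaffold by 7.22 ± 0.38 on the log2 scale (edgeR adjusted p of 5.86e-08 and 1.23e-09). Scaffolds were also the tissue with the most osteoclast and giant cell markers, 4273 to 7527 CPM over 10 genes in the 12 scaffolds, against at most 379 CPM in lungs and 340 CPM in spleens, and with the most macrophage markers, 9390 to 13660 CPM over 10 genes. Their part in the Spp1 level was not tested.

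Alpl had 6.97, 5.59 and 7.77 CPM in control lungs, where it is known from type II alveolar cells, and 1 or 2 counts in each control scaffold. Phex had 5.58, 6.85 and 8.42 CPM in control lungs and at most 0.839 CPM in control scaffolds and spleens. Mgp had 712, 653 and 659 CPM in control lungs, 273, 258 and 269 CPM in scaffolds and 73.0, 37.1 and 26.3 CPM in spleens. The lungs stood above both other tissues without overlap for each of these 3 genes.

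Lung exceeded scaffold for Alpl (4.56 ± 0.50 on the log2 scale, edgeR adjusted p = 2.74e-06), Phex (3.81 ± 0.51, adjusted p = 2.16e-05) and Mgp (1.12 ± 0.27, adjusted p = 0.00362). Runx2 was lower in lung than in scaffold (-1.07 ± 0.23, adjusted p = 0.00137), a call whose fold dropped below 2 without control scaffold replicate 2 (-0.97) or control lung replicate 3 (-0.93). Against spleen, the lung was higher for Alpl, Phex, Mgp, Sparc and Spp1, so 5 of 7 were called, all higher, where 36.8% of all genes were called and 19.1% were higher. Sparc was lower in lung than in scaffold by less than 2-fold (-0.90 ± 0.25, adjusted p = 0.00803) and just passed without control scaffold replicates 2 or 3 or control lung replicate 3 (-1.01 in each case). From scaffold to spleen 4 of 7 were called, against 31.5% of all genes: Spp1, Sparc (-2.43 ± 0.26, adjusted p = 1.93e-06) and Mgp (-2.71 ± 0.29, adjusted p = 2.24e-06) were lower in spleen. Alpl was higher (1.94 ± 0.66, adjusted p = 0.0261), which did not hold without control scaffold replicate 2 (adjusted p = 0.0869), without control spleen replicate 3 (adjusted p = 0.154) or with DESeq2 (adjusted p = 0.0597).

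**Figure D4:**
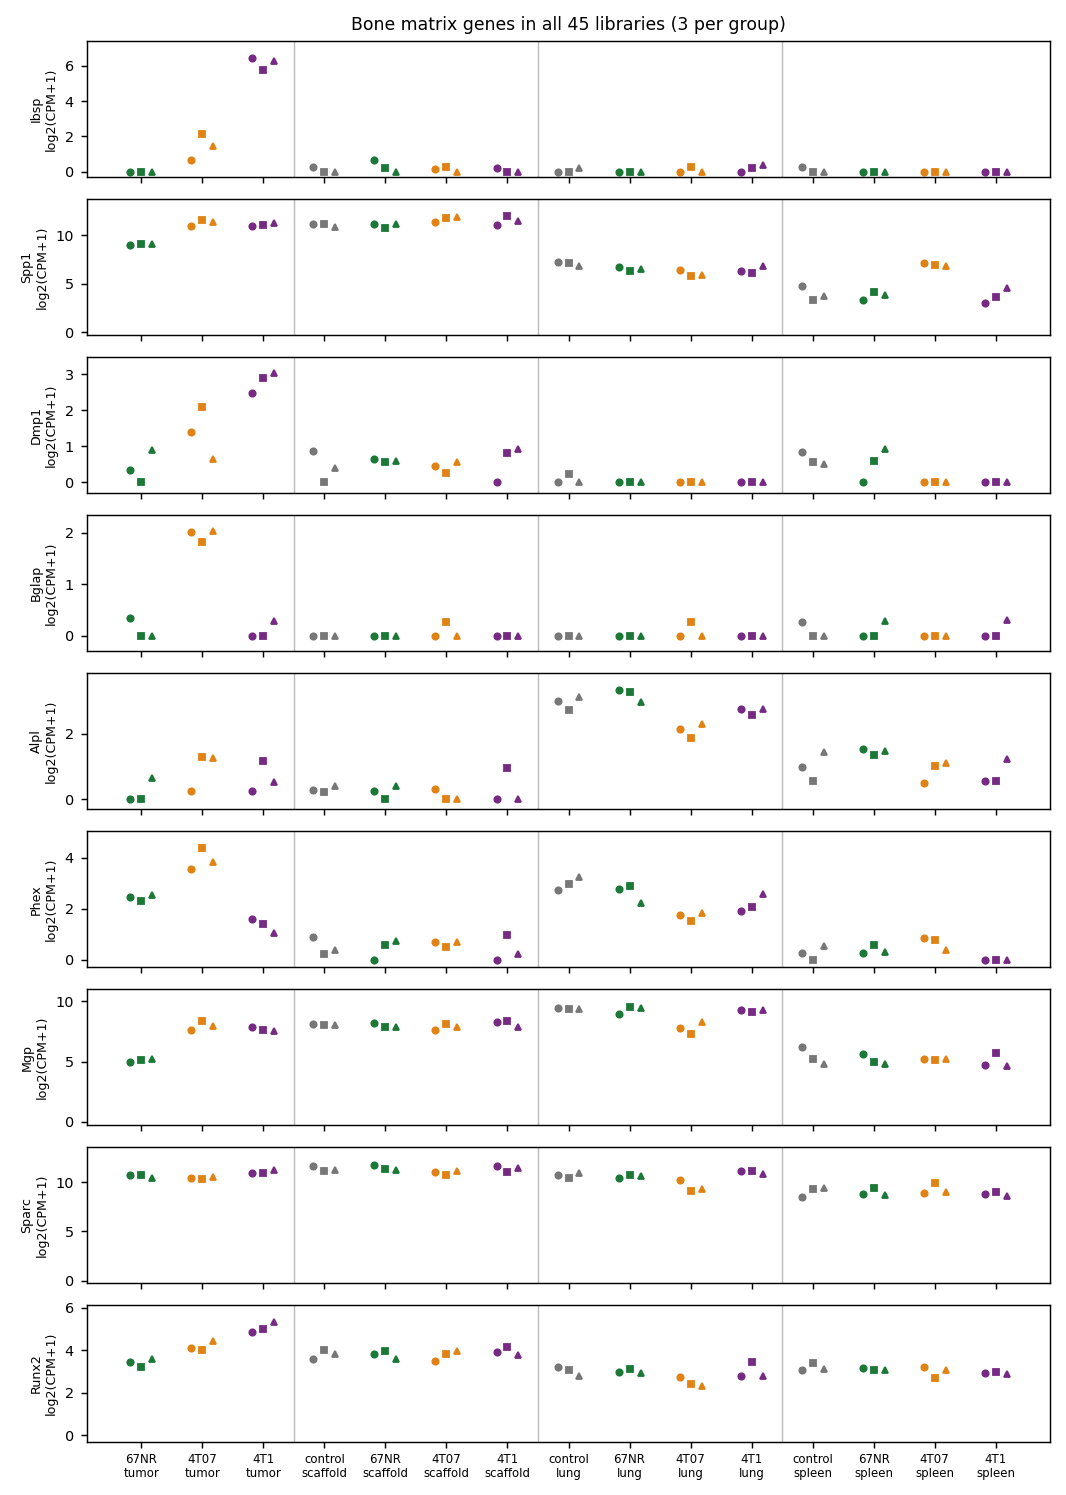
Log2(CPM + 1) of each member (1 panel each, vertical axis) in all 45 libraries by group (horizontal axis), 3 points per group, coloured grey for control, green for 67NR, orange for 4T07 and purple for 4T1. Ibsp is over 3 counts in 5 libraries, all of them 4T07 or 4T1 tumors, Alpl is highest in lungs, and Spp1 in spleens stands out in 4T07 mice.

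Tumors were also compared with the scaffolds of mice with the same line. In 4T07 mice 4 of 9 members were higher in tumors than in scaffolds, against 18.8% of 23778 genes called and 9.33% higher. Of these, Phex (4.48 ± 0.52 on the log2 scale, edgeR adjusted p = 4.05e-07) and Dmp1 (2.16 ± 0.72, adjusted p = 0.0267) are read as tests. The others were Bglap, with 40 counts in tumors and 1 in scaffolds, which entered the fit only through the 4T07 tumors, and Ibsp, the gene that chose the members, with 28 counts in tumors and 2 in scaffolds. Both are given as descriptions without a p, and the count of 4 is not read as support. The Dmp1 call was lost without 4T07 scaffold replicate 1 (adjusted p = 0.0651), scaffold replicate 2 (0.0803) or tumor replicate 2 (0.241).

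In 4T1 mice 3 of 8 tested members were higher in tumors, against 23.7% of all genes called and 11.6% higher: Dmp1 (3.29 ± 0.63, edgeR adjusted p = 0.000219), Phex (1.97 ± 0.69, adjusted p = 0.0301) and Runx2 (1.01 ± 0.21, adjusted p = 0.000526). Phex lost its call without scaffold replicates 1 or 3 or tumor replicates 1 or 2 (adjusted p from 0.061 to 0.137), and in a fit of only those 2 groups (adjusted p = 0.073). Runx2 dropped below a fold of 2 without scaffold replicates 1 or 3 or tumor replicate 3, and with at least 10 counts required in every sample, at 0.89 to 0.99 on the log2 scale. In 67NR mice 3 of 8 passed, against 32.4%, with Phex higher in tumors (3.43 ± 0.60, adjusted p = 6.3e-05) and Spp1 (-1.93 ± 0.23, adjusted p = 3.5e-07) and Mgp (-2.93 ± 0.22, adjusted p = 1.95e-10) lower. The median of all genes in this last comparison was -0.24.

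Among scaffolds no member was called in any of the 6 comparisons between lines and control, with edgeR (adjusted p under 0.10 and fold over 2) or with DESeq2, although 7.44% of 22156 genes passed between 4T07 and control and 5.85% between 4T07 and 67NR scaffolds. Between 4T1 and 4T07 scaffolds 1.0% of genes passed, between 4T1 and control or 67NR scaffolds 0.0226% each, and between 67NR and control scaffolds 0.0%. The highest Spp1 levels of any group were nevertheless those of scaffolds from 4T07 mice, at 2690, 3448 and 3857 CPM, and of 4T1 mice, at 2086, 3997 and 2750 CPM. Control scaffolds reached 2296 CPM, so that 4T07 but not 4T1 scaffolds lay wholly above them, and the difference from control was 0.51 ± 0.24 for 4T07 (adjusted p = 0.194) and 0.35 ± 0.24 for 4T1 (adjusted p = 0.596) on the log2 scale. Spp1 and Sparc had an unadjusted p under 0.05 in 4T07 against control and in 4T07 against 67NR scaffolds, and no member had one in the other 4 comparisons.

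Sparc differed the other way, with 2042, 1699 and 2266 CPM in 4T07 scaffolds and 3211, 2297 and 2344 CPM in control scaffolds (-0.54 ± 0.24, edgeR adjusted p = 0.163). Mgp, at 199 to 327 CPM over the 12 scaffolds, and Runx2, at 10.2 to 17.0 CPM, overlapped between all groups. Phex, Dmp1 and Alpl had 5 counts or fewer in every scaffold. Among the 64 other pathway genes tested in scaffolds, 3 rose and 2 fell from control to 4T07, beside 7.44% of all genes, among them Smpd3, a sphingomyelinase needed for mineralization, which rose by 2.69 ± 0.36 (adjusted p = 0.000626), Msx1 (1.02 ± 0.26, adjusted p = 0.0186) and Clec3b, which fell by 1.14 ± 0.19 (adjusted p = 0.00155).

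In lungs, mice with 4T07 tumors had lower levels of several members than all other mice. The filter was passed by 6 members (not Ibsp, Bglap or Dmp1, which had at most 2 counts in any lung), and all 6 had their lowest group mean in 4T07 lungs. How many of all genes share this order was not counted, so it is not read as a trait of the members. From control to 4T07 lungs 2 of the 6 were called, both lower, against 29.0% of 21937 genes called and 13.7% lower, and from 67NR to 4T07 lungs 3 of 6, all lower, against 29.7% and 15.3%. From 4T07 to 4T1 lungs 2 of 6 were called, both higher in 4T1, against 23.5% called and 11.6% higher. The comparisons share the 4T07 lungs. No member passed with edgeR or DESeq2 in 67NR or 4T1 against control or in 4T1 against 67NR lungs, where 4.25%, 4.61% and 5.03% of all genes did and 1, 2 and 1 members had an unadjusted p under 0.05.

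Mgp had 220, 152 and 315 CPM in 4T07 lungs, and 653 to 712 CPM in control, 496 to 765 CPM in 67NR and 553 to 638 CPM in 4T1 lungs. The 4T07 lungs were below all others. The difference was -1.50 ± 0.21 on the log2 scale from control (edgeR adjusted p = 6.99e-06), -1.36 ± 0.21 from 67NR (adjusted p = 2.26e-05) and, for 4T1 against 4T07, 1.36 ± 0.21 (adjusted p = 2.77e-05).

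Alpl had 3.39, 2.68 and 3.90 CPM in 4T07 lungs and 4.94 to 9.19 CPM in all other lungs, without overlap. It was lower than in 67NR lungs by -1.14 ± 0.26 on the log2 scale (edgeR adjusted p = 0.00125), and lower than in control lungs by less than 2-fold (-0.97 ± 0.26, adjusted p = 0.00531). Without control lung replicate 2 or 4T07 lung replicate 3 the latter passed, with -1.08 in both cases.

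Phex had 2.33, 1.86 and 2.603 CPM in 4T07 lungs, 5.58 to 8.42 CPM in control, 3.62 to 6.33 CPM in 67NR and 2.74 to 4.95 CPM in 4T1 lungs. It too was lowest in every 4T07 lung. It was lower than in control lungs by -1.55 ± 0.33 on the log2 scale (edgeR adjusted p = 0.000607) and than in 67NR lungs by -1.04 ± 0.34 (adjusted p = 0.0159). The latter fell below a fold of 2 without 67NR lung replicate 1 or 2 or 4T07 lung replicate 2, at -0.84 to -0.92. In 4T1 lungs Phex was lower than in control by -0.91 ± 0.29 (adjusted p = 0.0608), under the required fold, and passed without control lung replicate 1 (-1.03) or 4T1 lung replicate 3 (-1.21).

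Sparc had 1172, 564 and 646 CPM in 4T07 lungs, 1351 to 1908 CPM in control, 1391 to 1742 CPM in 67NR and 1844 to 2254 CPM in 4T1 lungs. It was higher in 4T1 than in 4T07 lungs by 1.36 ± 0.22 on the log2 scale (edgeR adjusted p = 3.77e-05) and just short of 2-fold lower in 4T07 than in control lungs (-0.98 ± 0.21, adjusted p = 0.000832). Spp1 was likewise just short of it (-0.99 ± 0.19, adjusted p = 0.000262), with 81.1, 53.5 and 57.5 CPM in 4T07 and 150, 135 and 112 CPM in control lungs. Both passed with no filter on low counts (-1.01 for Sparc and -1.02 for Spp1) and without 4T07 lung replicate 1 (-1.33 and -1.16). Sparc also passed without control lung replicate 2 (-1.10), and Spp1 without control lung replicate 3 (-1.10) or, barely, 67NR lung replicate 3 (-1.002). Against 67NR lungs Sparc was lower in 4T07 lungs by -0.82 ± 0.21 (adjusted p = 0.0036), which passed without 4T07 lung replicate 1 (-1.17).

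Several lists of cell markers differed between 4T07 and control lungs, some higher and some lower. The 6 endothelial markers summed to 689 to 1100 CPM in 4T07 lungs and 2251 to 2750 CPM in all other lungs, 8 fibroblast markers to 302 to 406.5 against 634 to 932 CPM, and 8 epithelial markers to 224 to 504 against 831 to 1133 CPM. The 8 neutrophil markers summed to 22570 to 26830 CPM in 4T07 lungs and 11700 to 27730 CPM in 4T1 lungs, against 230 to 304.5 CPM in control lungs. The 10 macrophage markers summed to 696 to 986 CPM in 4T07 lungs and 489 to 563 CPM in all other lungs. Smooth muscle markers, 6 genes, came to 82.6 to 118 CPM in 4T07 lungs. They came to 83.15 to 110 CPM in control, 127 to 256 in 67NR and 106 to 136 CPM in 4T1 lungs. All genes of these lists were detected in each group of lungs. The part of these cells in the levels of Mgp, Alpl, Phex, Sparc and Spp1, and of the other pathway genes below, was not tested.

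Of 64 other pathway genes, 9 rose and 23 fell from control to 4T07 lungs, beside 29.0% of all genes called and 13.7% lower, with a median of -0.26 against -0.01 for all genes, and 11 of the falls were among 20 other bone matrix proteins. Vtn fell by 2.51 ± 0.37, Postn by 2.39 ± 0.19 and the lung phosphate transporter Slc34a2 by 2.25 ± 0.22 on the log2 scale, with edgeR adjusted p of 1.16e-05, 3.11e-09 and 6.84e-08. Ahsg (fetuin), an inhibitor of mineral growth from the liver, was called lower as well (adjusted p = 0.000224), with 36.1 ± 54.0 CPM in control and 0.429 ± 0.380 CPM in 4T07 lungs (SD, n = 3), a spread in controls larger than their mean. Ggcx, the enzyme that carboxylates Mgp and osteocalcin, fell by 1.62 ± 0.20 (adjusted p = 1.49e-06) and Nt5e by 1.57 ± 0.19 (adjusted p = 1.1e-06), while Ank, which exports pyrophosphate, rose by 1.42 ± 0.16 (adjusted p = 4.76e-07) and Slc20a1 by 1.39 ± 0.17 (adjusted p = 9.52e-07).

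Among factors and receptors in the same comparison, Fgfr3 fell by 2.63 ± 0.23, Fgfr2 by 1.67 ± 0.22 and Axin2 by 1.51 ± 0.23, and Itga8 by 2.81 ± 0.19, with edgeR adjusted p from 2.33e-10 to 1.52e-05. Itgb3, the integrin chain that binds osteopontin on platelets, osteoclasts and other cells, rose by 3.42 ± 0.23 (adjusted p = 3.25e-10) and Itga4 by 1.73 ± 0.17 (adjusted p = 4.27e-08). Col5a1 rose by 1.28 ± 0.16 (adjusted p = 1.6e-06), and Itgb1 and Itga9 fell by 1.19 ± 0.14 and 1.04 ± 0.14.

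In spleens Spp1 was the member that set one line apart. It had 137, 118 and 111 CPM in 4T07 spleens, 26.6, 8.77 and 12.3 CPM in control, 9.21, 16.3 and 13.0 CPM in 67NR and 6.95, 11.8 and 21.7 CPM in 4T1 spleens. Each 4T07 spleen was far above every spleen of the other groups, which overlapped among themselves.

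The difference was 3.09 ± 0.38 on the log2 scale from control (edgeR adjusted p = 2.31e-05) and 3.52 ± 0.39 from 67NR spleens (adjusted p = 1.1e-05), and 4T1 spleens were lower than 4T07 spleens by -3.08 ± 0.38 (adjusted p = 0.000306). The filter was passed by 7 members in spleens. In 4T07 against control 2 of them were called, Spp1 and Dmp1, where 18.6% of 21128 genes were. That count is not read as support, since Dmp1 passed the filter only through spleens where it is high. In 4T07 against 67NR 1 was called, higher, where 14.7% were called and 6.5% higher. In 4T1 against 4T07 1 was called, lower, where 2.33% were called and 1.5% lower. No member passed with edgeR or DESeq2 in 67NR against control spleens, where 2.26% of genes did and no member had an unadjusted p under 0.05. The same held for 4T1 against 67NR spleens, where 20.7% did and 2 members had such a p. The levels of 4T07 spleens were near those of control lungs, at 112 to 150 CPM, and far below those of scaffolds.

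Neutrophil markers were high in 4T07 spleens (23150 to 29060 CPM over 8 genes) and in 4T1 spleens (12070 to 30920 CPM), against 979 to 1695 CPM in control spleens. Macrophage markers summed to 1195 to 1343 CPM in 4T07 and 1712 to 2293 CPM in control spleens, and 8 epithelial markers to 12.4 to 15.5 against 23.9 to 27.9 CPM. Osteoclast and giant cell markers were 237.5 to 294 CPM in 4T07, 194 to 236.5 CPM in control and 282 to 340 CPM in 4T1 spleens, with Calcr and Oscar at 0 in 4T07 and control spleens. The part of these cells in the Spp1 level was not tested.

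Dmp1 was also called in spleens, on few counts. It had 4, 2 and 2 counts in control, 0, 2 and 4 in 67NR and none in any 4T07 or 4T1 spleen. Dmp1 passed the filter only through control and 67NR spleens, where it is high, so no p is given for it. It was called lower in 4T07 and in 4T1 against control, and neither count of members is read as support. In 4T1 against control it was the 1 member called, where 19.9% of all genes were called and 10.0% lower. All groups lie at or near the floor, so no fold is given, and DESeq2 gave no adjusted p. Against 67NR spleens Dmp1 was not called for either line, but for both without 67NR spleen replicate 1. The calls against control were lost without 1 of several libraries (4T07 spleen replicates 1 or 2, and control spleen replicate 2 or any 4T1 spleen). Without control spleen replicate 1 or 67NR spleen replicate 3 the gene no longer passed the filter.

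No comparison of the other 5 members among spleens passed with edgeR. Mgp lay between 23.8 and 73.0 CPM, Sparc between 359 and 972 CPM, Runx2 between 5.52 and 9.46 CPM, Alpl between 2 and 9 counts, and Phex between 0 and 4 counts, with all 3 4T1 spleens at 0. Their adjusted p ranged from 0.118 to 0.997. Among 59 other pathway genes 11 rose and 12 fell from control to 4T07 spleens, beside 18.6% of all genes, with Itgb3 up by 1.60 ± 0.22 (adjusted p = 5.57e-05), Fn1 by 1.36 ± 0.17 (adjusted p = 3.71e-05), Thbs1 by 1.91 ± 0.29 (adjusted p = 0.000158) and Sox9 by 2.16 ± 0.38 (adjusted p = 0.000493). Enpp1, which makes pyrophosphate, fell by 1.45 ± 0.18 (adjusted p = 3.22e-05) and Mef2c by 1.53 ± 0.21 (adjusted p = 7.56e-05).

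**Figure D5:**
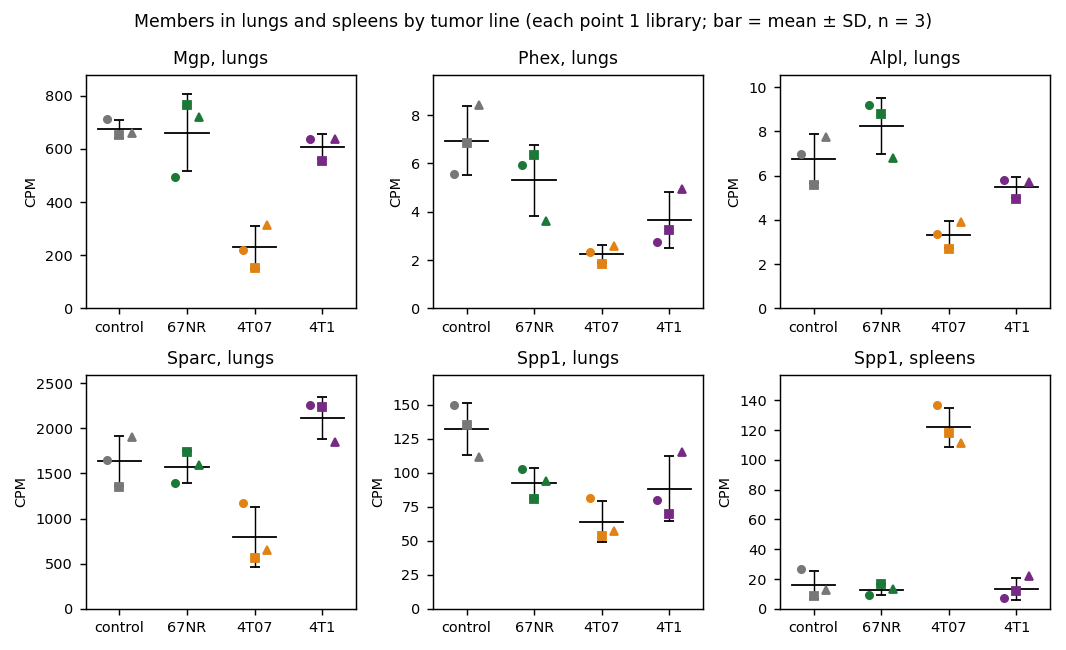
CPM (vertical axis, from 0) of Mgp, Phex, Alpl, Sparc and Spp1 in lungs and of Spp1 in spleens by tumor line (horizontal axis), with a point per library and the mean ± SD (n = 3) in black. The mean of the 4T07 lungs is lowest in each lung panel, although for Spp1 their points overlap with those of 67NR and 4T1 lungs, and the 4T07 spleens, at 111 to 137 CPM of Spp1, are above all other spleens.

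The test of the difference itself, an interaction in 1 edgeR fit of the 36 scaffold, lung and spleen libraries, asked whether the effect of a line depended on the tissue. It was called for members in 4T07 against control, where 20.6%, 16.7% and 22.0% of all genes were called for lung minus scaffold, spleen minus scaffold and spleen minus lung, at 2, 2 and 4 of 8 members tested. The members called for lung minus scaffold were all lower, beside 12.0% of genes, and those for spleen minus scaffold and spleen minus lung all higher, beside 7.49% and 10.8%. The Spp1 effect of 4T07 was higher in spleen than in lung by 4.19 ± 0.44 on the log2 scale (adjusted p = 8.04e-09). In 67NR and 4T1 against control no member was called with edgeR or DESeq2 at an adjusted p under 0.10, while 0.00375%, 0.0075% and 0.0263% of genes were for 67NR and 1.05%, 15.2% and 16.8% for 4T1 in the same order, and 1 member had an unadjusted p under 0.05 for 4T1 in lung minus scaffold and in spleen minus scaffold.

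Read across the 15 groups, each member had its own order of levels. For Ibsp 4T1 tumors came first, apart from the 4T07 tumors, which came second. The lowest 4T07 tumor and the highest of the 67NR scaffolds, next in order, each had 3 counts, so their separation in CPM is not read. All other groups overlapped with their neighbours. For Phex the 4T07 tumors came first, apart from control lungs at 6.95 ± 1.42 CPM (SD, n = 3), and for Runx2 the 4T1 and then the 4T07 tumors, of which the latter overlapped with the 4T1 scaffolds next in order. Sparc and Mgp were lowest in 4T1 spleens (450 ± 68.6 CPM) and in 67NR tumors (33.0 ± 3.30 CPM), and neither differed from its neighbour in the order beyond the spread.

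The genes whose group means were most like those of a member were sought among 14980 genes with at least 5 CPM in a group, by Pearson's r of log2(CPM + 1) over the 15 groups, which share their libraries. For Ibsp they were Pthlh (r = 0.986), Gm26803 (0.982) and Msx3 (0.981). Pthlh encodes a hormone that acts on bone cells, and it had 25.9 ± 7.08 CPM in 4T1 tumors, 2.14 ± 2.09 CPM in 4T07 tumors and none in 67NR tumors (SD, n = 3). For Dmp1 they were Il23a (0.990), Col7a1 (0.95) and Slc22a29 (0.943), and for Runx2 Gzmc (0.972), Tes (0.957) and Mmp10 (0.954).

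For Spp1 the most alike were Vcan (r = 0.969), C3ar1 (0.966) and Washc5 (0.964), and for Phex C430049B03Rik (0.944), Ms4a8a (0.912) and Phlda1 (0.908). Alpl was most like Rbpjl (0.985), Ildr1 (0.984) and Snx25 (0.982), Sparc like Anxa5 (0.976), Myof (0.965) and Cyfip1 (0.965), and Mgp like Plagl1 (0.986), Edil3 (0.986) and Gm44250 (0.984). Bglap stayed under 5 CPM in every group and was left out. A coefficient over 15 means with 1 or 2 high groups is a description of those groups.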

How the data were processed

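RNA was measured in 45 libraries of 15 groups (3 each). Libraries were made with a 3' tag kit with unique molecular identifiers. The authors deposited a single table of whole-number counts, not normalized, with a gene symbol on each line; Trim Galore 0.5.0, STAR 2.6.0 and featureCounts are listed, without a role, in the submitters' processing notes, and the genome build, annotation, strand setting and collapsing of identifiers are not given in the sources used here. Reads of near-identical genes and of overlapping genes may therefore be assigned differently. The table's 55487 lines gave 55367 symbols after 120 repeated lines were added up.

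Groups were taken from the sample labels. Scaffolds, lungs, spleens and tumors were fitted separately, each with all groups of that tissue (edgeR 4.0.16, R 4.3.3, TMM factors, quasi-likelihood F test, Benjamini-Hochberg adjustment over all genes with more than 10 counts in the fit). The thresholds follow the study: adjusted p under 0.05 in tumors and under 0.10 elsewhere, with a fold over 2; control tissues and tumors against scaffolds used 0.05, and interactions 0.10 without a fold. SE is the log2 fold change divided by the square root of F. A floor of 3 counts per library stands for no detection, and intervals and floors cover counting error only. Library totals of 3491888 to 8175380 counts set the precision.

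The members and lists were chosen with earlier results of these data known. All 9 members are named. From each of the 4 pathway lists the text names up to 3 genes in each direction with the largest called change and at least 5 CPM over the tissue, in the comparisons it describes, and the 3 genes most alike to a member. Ankh of these lists is in the table as Ank. The alternatives were DESeq2 1.42.0, its size factors in edgeR, fits without a filter or with at least 10 counts required in every sample, fits of the compared groups alone, and each library left out. The fits were tested on simulated counts, with 200 genes changed 4-fold in 1 comparison of each fit. The changed genes were drawn only from those above a minimum mean count, and all genes were given the same spread. The rates that follow thus do not cover members with few counts, such as Bglap, Dmp1 and Alpl in tumors. With edgeR, 45% of these genes were recovered in the interaction fit and 86% to 95% in the other fits. Of all calls, 1.71% to 11.3% were of unchanged genes. A lack of calls in the interactions is therefore weak evidence of no difference. Of 45 pairs of libraries within groups 0 were identical.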

Additional observations from a re-analysis of the deposited data

Results flagged for a closer look

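The effect of 4T07 tumors against control differed between tissues for 4 members, by the interaction test in edgeR over 36 libraries (n = 3 per group, adjusted p under 0.10). Called were 4 of 8 members for spleen minus lung, 2 for spleen minus scaffold and 2 for lung minus scaffold. Of all genes, 22.0%, 16.7% and 20.6% were called in the same order, and the counts of members are not read as support. For Spp1 the difference was 4.19 on the log2 scale for spleen minus lung (adjusted p = 8.04e-09), 2.57 for spleen minus scaffold (adjusted p = 8.4e-05) and -1.63 for lung minus scaffold (adjusted p = 0.00409). Its own effects were 3.09 in spleens, 0.51 in scaffolds and -0.99 in lungs, so all 3 4T07 spleens were above and all 3 4T07 lungs below their controls.

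For Mgp the difference was 1.40 for spleen minus lung (adjusted p = 0.0105) and -1.31 for lung minus scaffold (adjusted p = 0.0143). Phex gave 3.31 for spleen minus lung (adjusted p = 0.0191), with 4 counts or fewer in every spleen. Sparc gave 1.54 for spleen minus lung (adjusted p = 0.00342) and 0.96 for spleen minus scaffold (adjusted p = 0.098). The last value lay close to the threshold, which it missed in 10 of the 18 fits that left out 1 control or 4T07 library. Among these were the fits without each control lung, which is no part of that difference (0.96, edgeR adjusted p from 0.101 to 0.107). The lowest value was 0.53 (adjusted p = 0.399) without 4T07 spleen replicate 2, which had 972 CPM of Sparc against 478 and 522 CPM in the other 4T07 spleens. These differences were among 9 interaction contrasts, and no cause of them was tested.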

How the results depend on the processing

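No paired analysis was possible because the labels give only serial library numbers, which do not link tissues of a mouse or samples across groups.

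The called differences counted here include some that are given above only as descriptions. They are those of Bglap in tumors, of Bglap and Ibsp between tumors and scaffolds, and of Dmp1 in spleens. The totals of member calls thus show how the fits respond to the settings. They are not read as support for the members, and no share of all genes stands beside them. The 51 called differences of single members gave 221 values under the alternatives other than leaving out a library. All of these kept their direction, and 3 missed the threshold. Leaving out a library gave 653 values, of which 38, from 10 of the differences, missed it. A member that no longer passed the filter, or had no adjusted p, gave no value and is not counted there. Requiring at least 10 counts in every sample, which by its construction tests fewer genes, lowered the calls of members from 7 to 2 in tumors, from 5 to 3 in spleens, from 14 to 9 between control tissues and from 10 to 2 between tumors and scaffolds, and those of pathway genes from 49 to 27 in tumors, from 13 to 7 in scaffolds and from 68 to 41 in spleens. Member calls in spleens were 3 with DESeq2, which gave no adjusted p for Dmp1, and 3 with only the compared groups. With no filter, pathway calls in scaffolds were 22.

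Leaving out 1 library gave 6 to 8 member calls in tumors, 0 to 0 in scaffolds, 6 to 10 in lungs, 3 to 7 in spleens (3 without control replicate 1 or 67NR replicate 3), 13 to 15 between control tissues, 8 to 11 between tumors and scaffolds and 7 to 10 of the interactions (main 8), where only the 18 control and 4T07 libraries were left out. The ranges of member calls in tumors, in spleens and between tumors and scaffolds include the same descriptive calls, and they are not read as support. Pathway calls were 44 to 50 in tumors, 11 to 16 in scaffolds, 77 to 99 in lungs (main 90) and 59 to 75 in spleens. Ibsp in 4T1 tumors averaged 65.0 to 81.5 CPM without 1 of the 3, 69.8 with TMM-scaled and 69.0 with DESeq2-scaled totals. DESeq2 size factors moved the median of all genes by at most 0.04 (log2). At 3491888 to 8175380 counts per library, Ibsp and Bglap outside tumors and Dmp1 in spleens lie at or near the floor, where a difference is hard to detect.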
